A study of Mus musculus with 2 samples.

Results

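Polycomb repressive complex 2 (PRC2) is represented here by 9 genes, chosen by name: *Ezh1* and *Ezh2*, the alternative catalytic subunits, *Eed* and *Suz12*, the core partners, *Rbbp4* and *Rbbp7*, the histone-binding subunits, and *Jarid2*, *Mtf2* and *Phf19*, the accessory subunits. They are 9 of the 37273 genes that GENCODE release M1 places on the autosomes, X and Y of mouse genome build mm9, and all 9 passed a minimum of 10 exon reads over both libraries, as did 14859 genes in all. The RNA came from R1 cells, a male mouse embryonic stem cell (ESC) line, at passage 18, grown with LIF on mitomycin-C-treated mouse embryonic fibroblasts, and from neuronal progenitor cells (NPCs) derived from ESCs. For the NPCs, LIF was withdrawn for 4 days of embryoid body culture, the bodies were replated on poly-L-ornithine and fibronectin in ITS medium, and the cells were gathered on day 7. Both libraries were strand-specific and were made from the non-polyadenylated (NPA) fraction, the RNA left after oligo(dT) capture of polyadenylated RNA and depletion of ribosomal RNA. There is 1 library per cell type, so there is no replicate check, every ratio compares these libraries rather than the cell types, and no test between cell types was possible.

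PRC2 places methyl groups on lysine 27 of histone H3, the mark that keeps developmental genes silent. EZH1 or EZH2 carries the methyltransferase activity, but only in a complex with EED, which reads the mark, and SUZ12, which holds the subunits together. JARID2, MTF2 and PHF19 join the core in alternative assemblies and help to bring it to chromatin, and RBBP4 and RBBP7 are closely related proteins that also serve in deacetylase, chromatin assembly and remodelling complexes. In ESCs the complex covers the promoters of many lineage genes, and cells without *Eed* differentiate poorly. Messenger RNAs of these genes are known to be polyadenylated. What is counted here is therefore the part of their RNA that stayed in the NPA fraction, not their total level.

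*Eed* holds a U12-type intron, one of the rare introns removed by the minor spliceosome, whose U11 and U12 RNAs recognise a 5′ splice site and a branch site that differ from those of ordinary introns. The splice sites are shown for intron 4 of *Eed*, for the ordinary introns on either side of it, and for the one other PRC2 intron whose first 7 bases read GTATCCT. All lie on the minus strand. Each run is written 5′ to 3′. A donor run holds the last 10 bases of the exon and then the intron, with the first 7 bases of the intron in capitals, and an acceptor run holds the last 30 bases of the intron, with the letters CTTAAC in capitals where they occur.
Eed intron 4 donor (chr7:97120030-97120059): agatgctgatGTATCCTtttctgaatgttt
Eed intron 4 acceptor (chr7:97118942-97118971): attatgtttCTTAACtgtggtatttctcag
Eed intron 3 donor (chr7:97120721-97120750): aagcaacagaGTGAGTGtcgggtgggggca
Eed intron 5 donor (chr7:97118796-97118825): gtgtataaagGTGCGTCttctggtcaaatt
Ezh2 intron 15 donor (chr6:47496728-47496757): cctacagaagGTATCCTatttttaagcaat
Ezh2 intron 15 acceptor (chr6:47495916-47495945): actctgatgcctctatttttcattttacag
ATATCCT or GTATCCT opened 757 of the 228613 introns of protein-coding genes examined, or 0.331%. CTTAAC stood within the last 40 bases of 32.2% of those introns and of 1.17% of the others, read on the transcribed strand only. Intron 4 of *Eed* holds it 21 bases before its end. Intron 6 of *Eed* also holds it, 24 bases before its end, but opens with GTAAGCT. In *Ezh2* intron 15, which belongs only to transcripts annotated as targets of nonsense-mediated decay, CTTAAC was not found in these last 40 bases.

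The authors deposited 1 line for each mapped read, 4271306 in ESCs and 4399729 in NPCs. Reads were scaled to reads per 1000000 of these totals (RPM), or further per kilobase (RPKM) where genes of different length are compared, and intervals are exact 95% intervals that cover counting error only. The labels of the cells were checked against marker genes. All 11 pluripotency genes with at least 10 reads were lower in NPCs, 9 of them by more than 2-fold, and their summed level went from 2627 to 733 RPM. Of 9 neural progenitor genes, only *Pax6*, *Nes*, *Ncam1* and *Dll1* reached 10 reads, and the summed level of the list was 55.7 RPM in ESCs and 66.6 in NPCs. *Fabp7*, *Sox3* and *Pou3f2* were at 0 reads in ESCs and at 2, 5 and 5 in NPCs, so the library labelled NPC held few reads of the markers that define the label. All 12 extraembryonic endoderm genes were more than 2-fold higher in NPCs, with a summed level of 807 RPM in ESCs and 15434 in NPCs, and *Ttr* was at 0 in ESCs. Of 10 fibroblast genes, which would mark feeder cells, 8 reached 10 reads, and *Lum* was at 0 in both libraries. The summed level of the 10 was 49.2 RPM in ESCs and 67.0 in NPCs. Of the 8 genes, 7 were higher in NPCs, beside 62.9% of all genes, and *Thy1* was lower, with 79 and 12 reads. The part that these cell mixtures play in the values of the PRC2 genes was not tested. In such bulk RNA, fewer cells of a type and less RNA per cell cannot be told apart.

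The 9 genes held 7137 exon reads in ESCs and 8068 in NPCs, or 1671 and 1834 RPM. Of the 9 genes, 5 were higher in NPCs and 4 were lower, and 1 was more than 2-fold higher, *Rbbp7*. Among all 14859 genes 62.9% were higher in NPCs, 25.5% by more than 2-fold, and 13.3% were more than 2-fold lower. The 9 genes had a median log2 ratio of NPC to ESC of 0.05 and all genes had a median of 0.35, and this shift of all genes is the reference for the relative values given below. Relative to it, 2 of the 9 genes, *Eed* and *Rbbp7*, lay above the median gene and 7 lay below it. *Rbbp7* was then still more than 2-fold higher, beside 16.5% of all genes, and *Jarid2* was more than 2-fold lower, beside 19.3%.

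**Figure D1:**
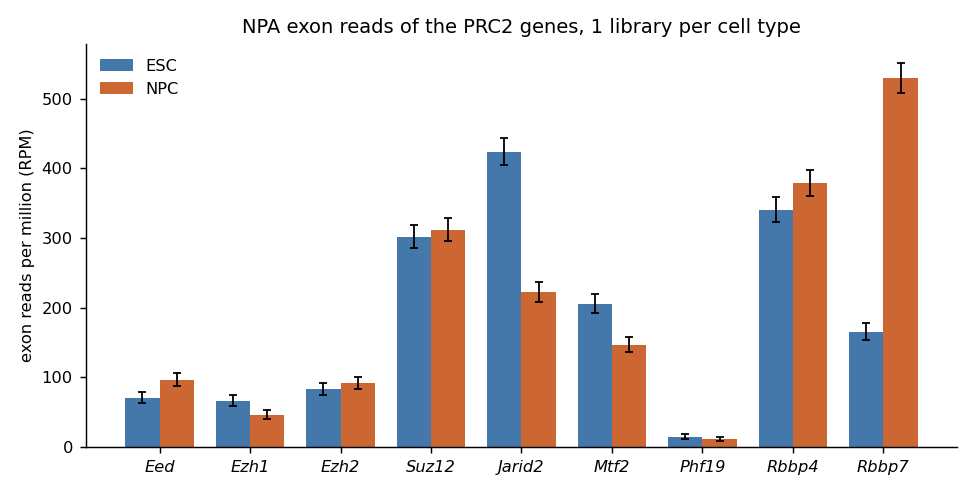
Exon reads in RPM (vertical axis) of each PRC2 gene in ESCs and NPCs, 1 library each, with exact 95% Poisson intervals as bars. *Rbbp7* goes from 166 to 529 RPM and *Jarid2* from 424 to 222, while *Ezh2*, *Suz12* and *Rbbp4* sit at like heights in both libraries.

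*Rbbp7*, on the X chromosome (chrX:159198334-159217024), had the largest ratio of the 9 by read counts scaled to library totals. It held 708 exon reads in ESCs and 2329 in NPCs, or 166 and 529 RPM, a ratio of 3.19 (2.93 to 3.48). Its log2 ratio of 1.68 stood at the 89.0th percentile of all genes. Every exon with at least 20 reads moved the same way. There were 11 such exons, and their log2 ratios ran from 1.28 in exon 1 to 2.51 in exon 10. Of the 61 ESC and 357 NPC reads of exon 10, 53 and 323 began at the single position described below. Exon 11 had a log2 ratio of 2.47. The intron reads of *Rbbp7* were also higher in NPCs, at 67 and 142, a ratio of 2.06 (1.53 to 2.79). Among its introns, the 830 bases between exons 7 and 8 held 2 reads in ESCs and 21 in NPCs, from 1 and 9 start positions, and this intron was picked after its values were seen.

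The size of the *Rbbp7* difference depended on how repeated reads were counted. When each start position and strand was counted once, 227 positions in ESCs and 384 in NPCs remained. The ratio was then 1.64 (1.39 to 1.94) scaled by all reads of the libraries and 1.40 (1.19 to 1.66) scaled by their totals of distinct starts, so the gene was no longer 2-fold apart. On the scale of distinct starts its log2 ratio of 0.49 was smaller in size than those of *Jarid2* (-0.78), *Ezh1* (-0.77) and *Mtf2* (-0.65). That of *Phf19* was -0.56, but its ratio of 0.676 (0.434 to 1.05) included 1. Counting each start once can shrink the ratio of a short, densely covered gene, and how far it did so for *Rbbp7* was not tested. Relative to the median gene, with every read counted, *Rbbp7* stood at 1.33 and *Jarid2* at -1.28. A single position made up 323 of the NPC reads, 13.9% (12.5 to 15.3%), and 53 of the ESC reads, 7.49%. The sequence there is shown because its reads begin at an exon-intron boundary, with the 10 bases before the start in lower case and the first 20 bases of the read in capitals.
Rbbp7 most used read start in NPCs (chrX:159212474-159212503, plus strand): tgtattgctaGGTCCACTGGTCTCCACATA
The read begins 1 base inside the intron, at its last base, a G. The last base of the exon before is also a G, so these reads match the spliced RNA just as well as the unspliced one. Leaving out the most used start of each library left a ratio of 2.99 (2.73 to 3.27). Near-identical copies of *Rbbp7* could share reads with it. Only 85.2% of its exon reads in ESCs and 89.9% in NPCs carry a sequence found once in the genome, and on those reads alone the ratio was 3.37 (3.08 to 3.70). The rest can include reads with no exact match as well as reads that match several places.

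*Rbbp4* (chr4:128984344-129012614, minus strand), the paralog of *Rbbp7*, held 1454 exon reads in ESCs and 1667 in NPCs, or 340 and 379 RPM. Its ratio of 1.11 (1.04 to 1.19) was above 1 beyond counting error and below the median gene, with a log2 value relative to it of -0.19. Counted by distinct starts, 363 and 360, the ratio was 0.963 (0.830 to 1.12) scaled by all reads and 0.822 (0.708 to 0.953) scaled by totals of distinct starts, so its direction rested on both the scale and the counting. The balance within the pair needs no scaling between libraries. *Rbbp7* made up 32.7% (30.8 to 34.8%) of the reads of the 2 genes in ESCs and 58.3% (56.7 to 59.8%) in NPCs. By distinct starts these shares were 38.5% (34.5 to 42.5%) and 51.6% (48 to 55.3%), so *Rbbp7* took a larger share in NPCs under both ways of counting, with intervals that did not overlap.

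*Jarid2* (chr13:44824843-45017012, plus strand), which encodes an accessory subunit with a role in bringing PRC2 to its targets, was the gene with the most exon reads in ESCs and the one that was lower by the most in NPCs. It held 1811 reads in ESCs and 977 in NPCs, or 424 and 222 RPM, and ESCs were 1.91-fold higher (1.77 to 2.07). All 15 exons with at least 20 reads were lower in NPCs, with log2 ratios from -1.92 to -0.14. Intron reads moved in the same direction, with 745 in ESCs and 418 in NPCs, a ratio of 0.545 (0.482 to 0.615). Of these, 472 and 218 fell in a single intron of 91463 bases (chr13:44827286-44918748), which makes up 50.0% of the intron bases of the gene. They were 63.4% (59.8 to 66.8%) of the intron reads in ESCs and 52.2% (47.2 to 57.0%) in NPCs, a ratio of 0.448 (0.380 to 0.528). This intron was not chosen in advance, and other annotated introns of the gene overlap it. With starts counted once the exon ratio was 0.583 (0.518 to 0.655). *Jarid2* made up 58.4% (56.7 to 60.2%) of the reads of *Jarid2* and *Suz12* in ESCs and 41.6% (39.6 to 43.6%) in NPCs. By distinct starts these shares were 62.4% (59.5 to 65.3%) and 53.5% (50.2 to 56.7%), lower in NPCs as well but with *Jarid2* the larger of the pair in both libraries.

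**Figure D2:**
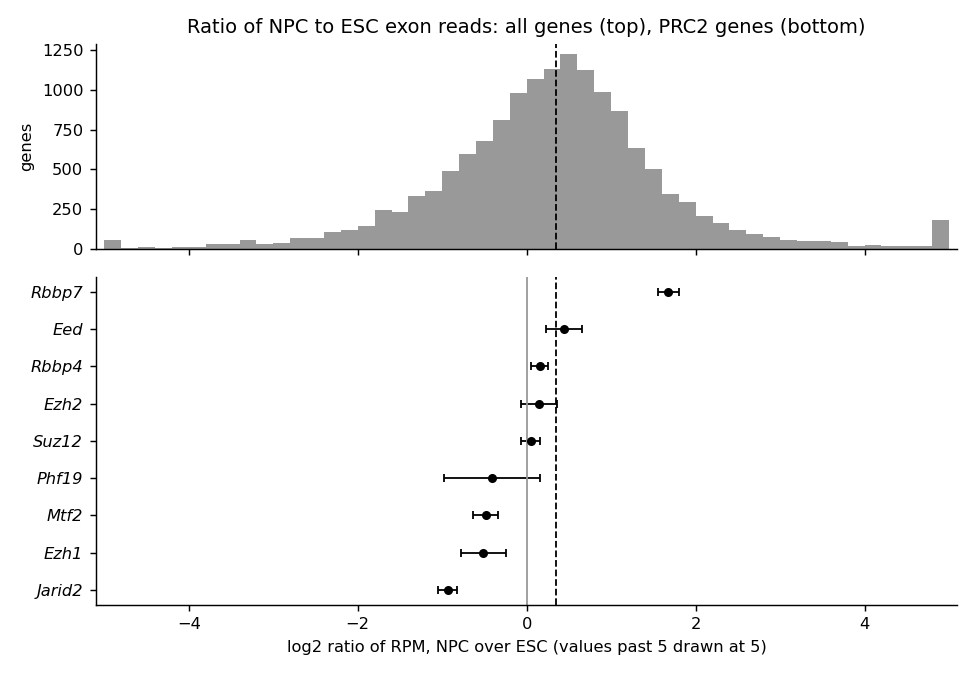
Log2 ratio of RPM in NPCs over ESCs (horizontal axis) for all 14859 genes with at least 10 reads (top, number of genes) and for the 9 PRC2 genes with exact 95% intervals (bottom), and the dashed line is the median of all genes, 0.35. *Rbbp7* at 1.68 and *Eed* at 0.44 lie to the right of the line, the other 7 genes lie to its left, and *Jarid2* at -0.93 is lowest.

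*Mtf2* and *Phf19* encode Polycomb-like proteins, which bind the complex in place of one another. *Mtf2* (chr5:108494693-108538023, plus strand) held 876 reads in ESCs and 646 in NPCs, or 205 and 147 RPM, a ratio of 0.716 (0.646 to 0.793). It was lower in 10 of its 12 exons with at least 20 reads, and its intron reads were lower as well, at 250 and 142, a ratio of 0.551 (0.446 to 0.680). *Phf19* (chr2:34749277-34769546, minus strand) held only 63 and 49 reads, and its ratio of 0.755 (0.509 to 1.11) was not distinguishable from 1 at this depth. *Phf19* gave 6.71% (5.19 to 8.50%) of the reads of *Phf19* and *Mtf2* in ESCs and 7.05% (5.26 to 9.21%) in NPCs, and a change in this balance was not detectable at this depth.

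Of the catalytic pair, *Ezh1* was lower in NPCs and *Ezh2* did not differ beyond counting error. *Ezh1* (chr11:101052429-101087777, minus strand) held 281 reads in ESCs and 203 in NPCs, or 65.8 and 46.1 RPM, a ratio of 0.701 (0.583 to 0.843), and 7 of its 9 exons with at least 20 reads were lower in NPCs. The intron reads of *Ezh1* were not lower, at 29 and 31, with a ratio of 1.04 (0.605 to 1.78) that included 1. *Ezh2* (chr6:47480273-47545340, minus strand) held 354 and 403 reads, or 82.9 and 91.6 RPM, and its ratio of 1.11 (0.956 to 1.28) included 1, with a log2 value relative to the median gene of -0.20. *Ezh2* made up 55.7% (51.8 to 59.7%) of the reads of the pair in ESCs and 66.5% (62.6 to 70.3%) in NPCs. Counted by distinct starts these shares were 47.8% (42.3 to 53.3%) and 58.0% (52.1 to 63.7%), and their intervals overlapped.

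Of the core partners, by library totals, *Eed* was higher in NPCs and *Suz12* did not differ beyond counting error. *Suz12* (chr11:79806608-79847625, plus strand) held 1288 reads in ESCs and 1372 in NPCs, or 302 and 312 RPM, with a ratio of 1.03 (0.958 to 1.12) and a log2 value relative to the median gene of -0.30. Of its 11 exons with at least 20 reads, 7 were higher and 4 lower, and the last of them alone held 623 and 694 reads. Counted by distinct starts, *Suz12* gave 418 and 425 positions. The ratio was then 0.987 (0.860 to 1.13) scaled by all reads. Scaled by totals of distinct starts it was 0.842 (0.734 to 0.967), which lies below 1. *Eed* (chr7:97103166-97129493, minus strand) held 302 and 422 reads, or 70.7 and 95.9 RPM, a ratio of 1.36 (1.17 to 1.58), close to the median gene, with a relative log2 value of 0.09. Counted by distinct starts, *Eed* gave 106 and 123 positions and a ratio of 1.13 (0.862 to 1.47) scaled by all reads or 0.961 (0.735 to 1.26) scaled by totals of distinct starts, and both intervals include 1.

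**Figure D3:**
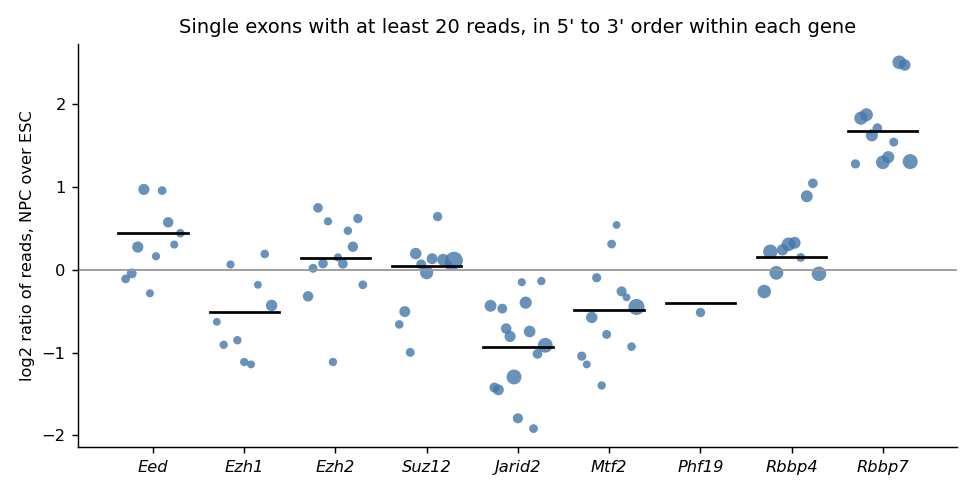
Log2 ratio of reads in NPCs over ESCs (vertical axis) for each exon with at least 20 reads over both libraries, in 5′ to 3′ order within each PRC2 gene, with point size growing with the number of reads and the black line at the ratio of the whole gene. All 11 points of *Rbbp7* lie above 0 and all 15 of *Jarid2* below it, whereas the exons of *Eed*, *Ezh2*, *Suz12* and *Rbbp4* lie on both sides.

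The reads of *Eed* were piled at a few positions more than those of the other genes. In NPCs 84 of 422 reads, 19.9% (16.2 to 24%), began at 1 position in exon 5, the exon directly downstream of the U12-type intron, and 36 of 302 began there in ESCs. In ESCs the most used start lay in exon 3, with 49 reads, 16.2% (12.3 to 20.9%), and 47 NPC reads began there. Both are shown because they hold so large a share of the reads of the gene, with the first 20 bases of the read in capitals.
Eed most used read start in NPCs (chr7:97118879-97118908, minus strand): tatgatagcaACACCAGCCACCCTCTATTA
Eed most used read start in ESCs (chr7:97120800-97120829, minus strand): atcataaccaGCCATTGTTTGGAGTTCAGT
Leaving out the most used start of each library gave a ratio of 1.30 (1.10 to 1.53) for *Eed*. For *Jarid2* and *Mtf2* the most used position was the same in both libraries. It held 3.04% and 3.07% of the *Jarid2* reads in ESCs and NPCs, and 7.31% and 8.36% of the *Mtf2* reads.

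Levels per length depended on which bases were counted. Over all annotated exons *Suz12* (61.0 RPKM) and *Rbbp7* (57.0) led in ESCs with overlapping intervals, followed by *Jarid2* (43.6), *Mtf2* (39), *Rbbp4* (38.9), *Eed* (31.9), *Ezh2* (13.4), *Ezh1* (8.84) and *Phf19* (2.93). *Mtf2* and *Rbbp4* were the other neighbours in this order whose intervals overlapped. In NPCs *Rbbp7* led with 182 RPKM, ahead of *Suz12* (63.1), *Rbbp4* (43.3), *Eed* (43.2), *Mtf2* (27.9), *Jarid2* (22.9), *Ezh2* (14.8), *Ezh1* (6.20) and *Phf19* (2.21), and only *Rbbp4* and *Eed* were neighbours with overlapping intervals. Over the coding sequence alone *Rbbp4* led in ESCs with 210 RPKM, ahead of *Rbbp7* with 100, and in NPCs *Rbbp7* with 334 RPKM stood ahead of *Rbbp4* with 240. *Ezh2*, *Ezh1* and *Phf19* stood last in ESCs over these bases too, with 33.3, 16.5 and 4.05 RPKM. Among protein-coding genes with at least 10 reads, *Phf19* stood at the 40.1st percentile of exon RPKM in ESCs and at the 26.9th in NPCs, and *Rbbp7* moved from the 96.2nd to the 99.0th.

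The exon reads fell on coding sequence and 3′ UTRs to differing degrees. The reads were placed by their 5′ end on the protein-coding transcripts. *Suz12*, *Mtf2*, *Phf19* and *Ezh1* had many of their reads in the 3′ UTR. In ESCs the 3′ UTR held 45.6% (42.9 to 48.4%) of those reads for *Suz12*, 48.4% (45 to 51.8%) for *Mtf2* and 38.9% (33.0 to 45.1%) for *Ezh1*. *Eed*, by contrast, had 1.05% (0.216 to 3.02%) of its reads in a 3′ UTR of 284 bases. In *Rbbp4* the 3′ UTR was thinly covered for its length, with 65.5 reads per kb of its 2886 bases in ESCs against 850 per kb of coding sequence, and 55.1 against 1005 in NPCs. The 5′ UTR held at most 8.58% of the reads, in *Jarid2* in NPCs.

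Coverage along the exons showed no common slope. When the exons of each gene were joined and cut at their midpoint, the share of reads upstream of it ran from 25.8% for *Phf19* to 76.9% for *Ezh2* in ESCs, with a median of 54.2%, and from 27.9% for *Rbbp4* to 76.2% for *Rbbp7* in NPCs, with a median of 45.9%. Only reads whose 5′ end lay in an exon were placed. For *Rbbp7* in NPCs these were 1967 of 2329 exon reads, without the 323 that begin at the boundary position shown above. Protein-coding genes with at least 50 reads had medians of 51.1% and 48.4%. The gene model moved these values, from 31.8% in ESCs over all exons to 95.7% over the exons of protein-coding transcripts for *Rbbp4*, and from 25.8% to 49.2% for *Phf19*.

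Introns contributed between 2.86% and 30.0% of the reads of a gene. The median share over the 9 genes was 12% in ESCs and 13.2% in NPCs, beside medians of 16.7% and 14.6% over protein-coding genes with at least 50 reads. *Jarid2* had the highest share in both libraries, 29.1% (27.4 to 31%) in ESCs and 30.0% (27.6 to 32.4%) in NPCs, so that its exon and intron reads were lower together. *Eed* followed with 25.6% (21.4 to 30.2%) and 23.4% (19.9 to 27.2%), *Ezh2* with 23.4% and 19.1%, and *Mtf2* with 22.2% (19.8 to 24.7%) and 18.0% (15.4 to 20.9%). *Rbbp4* had the lowest share, 3.45% (2.59 to 4.50%) and 2.86% (2.12 to 3.76%). The share of *Rbbp7* was 8.65% (6.76 to 10.8%) in ESCs and 5.75% (4.86 to 6.74%) in NPCs, the only pair of intervals of the 9 that did not overlap, by a narrow margin. This difference rested on counting every read. By distinct starts, *Rbbp7* had 58 intron and 227 exon positions in ESCs and 104 and 384 in NPCs, nearly the same proportion. Per base, exons were covered far more densely than introns in every gene, from 23.8 times as densely for *Phf19* to 62.4 times for *Rbbp4* in ESCs. Repeat reads had been removed by the authors, whereas the intron lengths here include repeats, so intron densities are lower bounds.

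**Figure D4:**
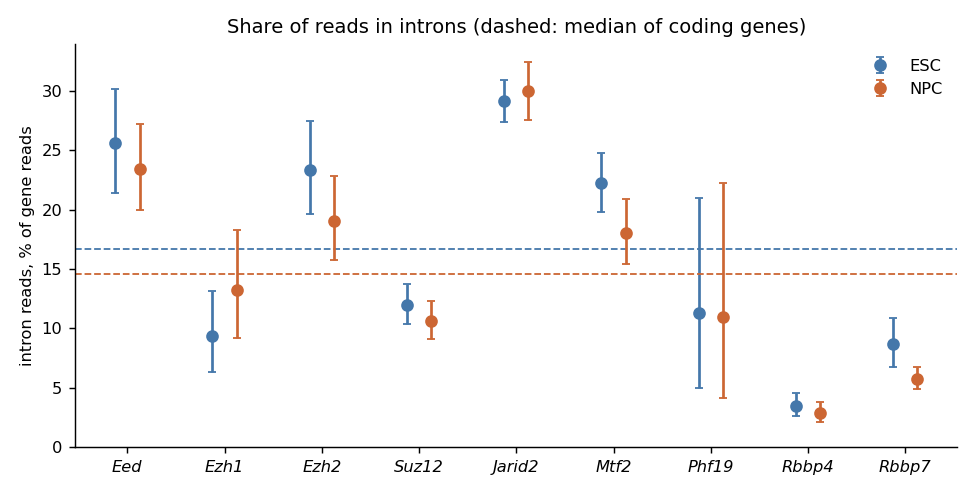
Share of the reads of each PRC2 gene that fell in introns (vertical axis, percent) in ESCs and NPCs with exact 95% intervals, and dashed lines at the medians of protein-coding genes, 16.7% and 14.6%. *Jarid2* is highest at 29.1% and 30.0% and *Rbbp4* lowest at 3.45% and 2.86%.

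Reads across exon-intron boundaries, which RNA with that intron still in place would give, were few. With at least 5 bases on each side, the 9 genes held 70 in ESCs and 45 in NPCs, or 0.981 and 0.558 per 100 exon reads, beside 0.877 and 0.782 over all protein-coding genes. *Jarid2* held 29 (19.4 to 41.6) in ESCs and 16 (9.15 to 26) in NPCs, *Suz12* held 17 and 12, *Mtf2* 7 and 4, and *Rbbp7* 2 and 7. With at least 10 bases on each side, 48 in ESCs and 25 in NPCs remained over the 9 genes. Whether some of the reads with fewer bases in the intron came from spliced RNA was not tested. Reads that reached 1 to 4 bases into an intron were left out of these counts, since spliced reads can end by chance on matching bases. Such reads numbered 63 in ESCs and 377 in NPCs in *Rbbp7*, where the boundary position shown above gave 53 and 323 of them.

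The U12-type intron of *Eed* (chr7:97118942-97120049, 1108 bases) had a density within the range of the other introns of the gene in both libraries. It held 5 reads in ESCs (1.62 to 11.7) and 12 in NPCs (6.20 to 21), a ratio of 2.33 whose interval of 0.764 to 8.44 includes 1, and both libraries had 5 start positions there. It made up 4.81% (1.58 to 10.9%) of the intron reads of *Eed* in ESCs and 9.30% (4.90 to 15.7%) in NPCs, and 4.60% of the intron bases. Per kb it had 4.51 reads in ESCs and 10.8 in NPCs, where the other 10 introns ran from 0 to 13.8 and from 0 to 15.4 and all introns of the gene together had 4.31 and 5.35. In NPCs the interval of its density (5.60 to 18.9 per kb) lay above the density over all introns and that of its share lay above its share of intron bases, which neither did in ESCs, and the 12 reads came from only 5 start positions. No read crossed either of its boundaries in either library, which allows up to 3 reads. The ordinary introns beside it, intron 3 and intron 5, held 0 and 1 reads in ESCs and 4 and 0 in NPCs. A difference in the retention of this intron between the libraries was thus not detectable at this depth. An efficiency of splicing would need reads over splice junctions. The alignment used could place such reads only where the bases past the junction were few or matched the intron. *Ezh2* intron 15, with the same first 7 bases, held 2 reads in ESCs and 5 in NPCs, from 2 starts in each library.

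**Figure D5:**
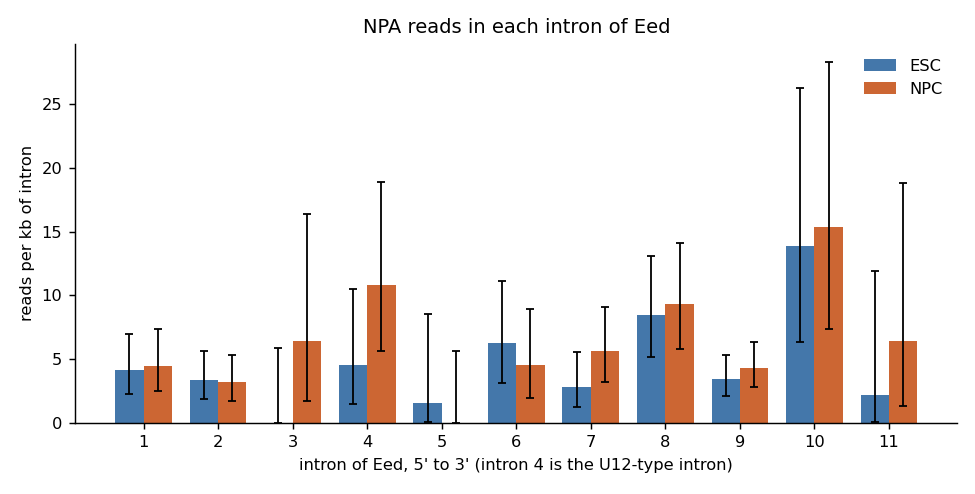
Reads per kb (vertical axis) in each of the 11 introns of *Eed* (horizontal axis, 5′ to 3′) in ESCs and NPCs with exact 95% Poisson intervals. Intron 4, the U12-type intron, stands at 4.51 in ESCs and 10.8 in NPCs, within the range of the other introns, and intron 10 is highest at 13.8 and 15.4.

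Further subunits of PRC2 and its partner complexes were counted in the same way. The other PRC2 subunits, *Aebp2*, *Phf1*, *E130012A19Rik* (Epop) and *Lcor*, were all higher in NPCs, with a median log2 ratio of 1.21 beside 0.35 for all genes, and 3 of them, all but *Aebp2*, lay above the median gene. With starts counted once the median of the list was 0.60, beside 0.02 for all genes counted that way. Of the 4 genes, 2 were more than 2-fold higher, beside 25.5% of all genes, and 62.9% of all genes were higher at any size. *E130012A19Rik*, whose product links PRC2 to elongin, held 121 and 397 reads, a ratio of 3.19 (2.59 to 3.94), and *Lcor*, whose locus also gives rise to a PRC2-binding isoform, held 67 and 209, a ratio of 3.03 (2.29 to 4.05). *Aebp2*, which competes with the Polycomb-like proteins for the core, held 525 and 686 reads. *Phf1*, a further Polycomb-like gene, held 11 and 20, and its ratio of 1.77 (0.806 to 4.08) included 1. The H3K27 demethylases *Kdm6a* and *Kdm6b*, which remove the mark, held 277 and 414 reads and 29 and 50 reads, with log2 ratios of 0.54 and 0.74.

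PRC1 ubiquitinates histone H2A and, in its CBX-containing forms, binds the mark that PRC2 places. Of its 24 listed genes 23 reached 10 reads, 18 of them higher in NPCs, 9 by more than 2-fold, and 1 more than 2-fold lower, with a median log2 ratio of 0.45 beside 0.35 for all genes. Among all genes 62.9% were higher in NPCs, 25.5% by more than 2-fold. Relative to the median gene, 14 of the list were higher, 7 of them by more than 2-fold beside 16.5% of all genes, and 9 were lower. With starts counted once the median of the list was 0.11, beside 0.02 for all genes counted that way. Those more than 2-fold higher by library totals included *Bcor*, *Bmi1*, *Yaf2*, *Ring1*, *Phc2*, *Pcgf5* and *Kdm2b*. *Bcor*, a corepressor of the variant PRC1 that holds PCGF1, had 39 reads in ESCs and 404 in NPCs, a ratio of 10.1 (7.23 to 14.4). *Bmi1*, which encodes PCGF4, had 30 and 144, a ratio of 4.66 (3.13 to 7.16). *Phc1*, a Polyhomeotic subunit, was the gene that was lower, with 971 reads in ESCs and 370 in NPCs, and ESCs were 2.70-fold higher (2.40 to 3.06). Its paralog *Phc2* went the other way, with 113 and 341 reads.

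The H3K4 methyltransferase complexes, which act against Polycomb at shared promoters, had 13 genes with reads, 10 of them higher in NPCs and 5 by more than 2-fold, *Setd1b*, *Paxip1*, *Setd1a*, *Mll2* and *Men1*, with a median log2 ratio of 0.68. Relative to the median gene 9 were higher, and only *Setd1b* by more than 2-fold, 1 of 13 genes beside 16.5% of all genes, and beside 25.5% for the 5 by library totals. By library totals 62.9% of all genes were higher in NPCs. *Setd1b* had 7 and 57 reads, a ratio of 7.91 (3.60 to 20.5). *Ash2l*, *Wdr5*, *Rbbp5* and *Dpy30*, which belong to the shared core of these complexes, had log2 ratios of -0.23, -0.22, -0.07 and 0.03. Other complexes that hold *Rbbp4* or *Rbbp7* were represented by 22 genes, 19 of them higher in NPCs and 7 by more than 2-fold, *Sap18*, *Mbd2*, *Chd3*, *Sin3b*, *Smarca1*, *Mta2* and *Bptf*, with a median log2 ratio of 0.67. Relative to the median gene 17 were higher and 3 by more than 2-fold, *Sap18*, *Mbd2* and *Chd3*. The shares of all genes were 62.9% higher in NPCs at any size by library totals, 25.5% for the first count over 2-fold and 16.5% for the second. The largest ratio among the 7 was that of *Sap18*, with 13 and 62 reads, and the best covered was *Sin3b*, with 393 and 901 reads, a ratio of 2.23 (1.97 to 2.51). *Hat1*, whose product acetylates new histones together with RBBP7, was lower in NPCs, with 1179 and 812 reads and a log2 ratio of -0.58, opposite in direction to *Rbbp7*.

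The 3 genes most like *Ezh2* were *Dhx32*, *Mob4* and *Mrpl39*, by the distance over 4 values, the log2 exon RPKM and log2 intron RPKM in both libraries, among 4511 other protein-coding genes with at least 50 exon and 50 intron reads. Their distances were 0.15, 0.23 and 0.26 on the log2 scale. *Dhx32* had exon levels of 12.3 RPKM in ESCs and 14.3 in NPCs, beside 13.4 and 14.8 for *Ezh2*.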

How the data were processed

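NPA RNA was sequenced on the SOLiD platform from 2 µg of RNA per library, after 3 rounds of poly(A) removal and 1 of ribosomal depletion, fragments of 150 to 250 bp being amplified in 15 PCR cycles. The authors aligned the reads to mm9 with Bowtie and removed mitochondrial, ribosomal and repeat reads. The deposited files hold 1 placement per read and 48 nt of its sequence. Sequences with exactly 1 exact match in the genome made up 78.2% of reads in ESCs and 83.2% in NPCs, and 4.19% and 3.98% had no exact match. Distinct start positions and strands numbered 1531216 and 1848069. No molecular identifiers were used, so repeated reads of 1 fragment look like abundant RNA and reads are not independent molecules.

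Reads on the gene strand were counted as exon reads when at least 1 base overlapped an exon of any GENCODE M1 transcript, and otherwise as intron reads. Counts carry exact Poisson, shares Clopper-Pearson and ratios conditional binomial 95% intervals. Called means more than 2-fold apart. Named genes are the 9 PRC2 genes, listed genes with at least 10 reads and more than 2-fold apart, and the 3 nearest to *Ezh2*. Other genes were named after their values were seen, and some genes of the lists are not reported here. The members and lists were chosen with earlier results of these data known. *Tfcp2l1* was looked up as *Tcfcp2l1*, and *Sox1* was not found by that name in the annotation. Alternatives changed the scaling, the counting of repeated and multiply placed reads, the gene model, the minimum and the boundary width. Independent Poisson counts were simulated for the 11142 genes with at least 50 exon reads over both libraries. In these, 200 of 200 genes changed 4-fold and 20 unchanged genes came out more than 2-fold apart. Of 1000 intervals, 959 held the true ratio. The intervals rest on the same model as the simulation, so their coverage for repeated reads or for genes with fewer reads was not tested. The tiling arrays and quantitative PCR of the study were not analysed here. Python 3.11.15, NumPy 2.4.6, pandas and SciPy 1.17.1 were used.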

Additional observations from a re-analysis of the deposited data

Results flagged for a closer look

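Reads on the strand opposite to the PRC2 genes lie outside the comparisons above, and 2 genes held more of them over their exons than the 3 reads that a count of 0 allows. Over *Rbbp4*, 34 antisense reads from 23 start positions were counted in NPCs and 1 in ESCs. They lay between chr4:128984912 and chr4:128987295, in the last exon of *Rbbp4*, where genes on the plus strand are annotated as well. Over *Jarid2*, 15 antisense reads from 9 positions were counted in ESCs and 2 in NPCs. The other 7 genes held at most 3 in either library. The 9 genes together had 0.280 antisense reads per 100 exon reads in ESCs and 0.533 in NPCs, beside 2.49 and 1.67 over all protein-coding genes, where overlapping genes are included.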

How the results depend on the processing

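Scaling and the counting of repeated reads set most of what changed. The count of PRC2 genes higher in NPCs was 5 as reported, 2 when scaled by the median of ratios over genes or by reads on exons of protein-coding genes other than histone genes, and 1 with starts counted once (3 with these starts scaled by all reads). The median log2 ratio of the 9 genes was -0.30, -0.28 and -0.28 in these settings. That of all genes was 0, 0.02 and 0.02, beside 0.35 by library totals, so these settings lowered the ratios of genes in general. The number more than 2-fold apart was 2 with the median of ratios and 0 with starts counted once. With the median of ratios, 16.5% of all genes were more than 2-fold higher and 19.3% more than 2-fold lower. The share of all genes with starts counted once is not given here. With starts counted once, the median intron share was 24.3% in ESCs and 22.4% in NPCs, boundary reads in ESCs numbered 46, and the NPC reads in *Eed* intron 4 and *Ezh2* intron 15 numbered 5 and 2. At least 10 bases on each side of a boundary left 25 boundary reads in NPCs. On protein-coding transcripts only, the median share of NPC reads upstream of the midpoint was 56.2%. The median log2 ratio of the H3K27 demethylases was 0.29 with the median of ratios and 0.30 with starts counted once. The cause of these changes was not tested beyond the construction of each alternative. Of 99 single-gene ratios under 11 alternatives, 72 stayed within the counting interval of the reported value. The settings on coding sequence, the most used start and distinct starts scaled by all reads were chosen after seeing the data. *Rbbp7* stayed higher and *Jarid2*, *Mtf2*, *Ezh1* and *Phf19* stayed lower in NPCs in all 11, whereas *Suz12* changed sign in 5, *Rbbp4* in 4, *Ezh2* in 3 and *Eed* in 1. With 1 library per cell type, no spread between replicates limits these values. No paired analysis was possible because each cell type has 1 library and no test was made.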
